A study of Homo sapiens with 6 samples.

Results

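The genes described here are 10 immediate early and AP-1 genes, FOS, FOSB, FOSL1, FOSL2, JUN, JUNB, JUND, EGR1, IER2 and IER3, chosen by gene symbol from a table of 33007 genes. Each symbol had a single row, and 10 of 10 genes had enough reads to be tested. RNA-seq was performed on 6 samples of LM3, an established human hepatocellular carcinoma (HCC) cell line: 3 control samples carrying the vector (controls 1 to 3) and 3 samples with stable knockdown of ZNF706, a zinc finger gene (knockdowns 1 to 3). All 6 samples are labelled WT for genotype. The knockdown was made with a pLKO.1 short hairpin RNA lentivirus under puromycin selection, in a single cell line, and which hairpin these samples carry is not stated. Nothing in the labels says that samples of a group came from separate cultures, so the p-values measure only the spread between these samples, which may be technical. The comparison asks how the RNA levels of these genes differ between LM3 cells with and without the knockdown.

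AP-1 is a transcription factor made of pairs of proteins joined through a basic leucine zipper (bZIP). A JUN protein (JUN, JUNB, JUND) pairs with another JUN protein or with a FOS protein (FOS, FOSB, FOSL1, also called FRA1, and FOSL2, also called FRA2), and the pair binds the TPA response element or the related cyclic AMP response element (CRE). Immediate early genes such as FOS, JUN, EGR1, IER2 and IER3 are transcribed within minutes of a growth factor or stress signal, without new protein synthesis, through MAP kinases (MAPK) and factors such as SRF, the ELK proteins, CREB and ATF2. Their RNAs are short-lived, many of them through AU-rich elements. In liver, JUN is known for its part in hepatocyte survival and regeneration and in the early growth of liver tumours.

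Total counts were 62684076, 64713764 and 63054445 in controls 1 to 3 and 68548419, 65861994 and 69057423 in knockdowns 1 to 3. Levels are given as CPM, counts divided by the library total and scaled between libraries by the TMM method without a correction for gene length, when samples are compared for 1 gene. FPKM values, which are divided by gene length, are used when genes are compared with each other. Fold changes are log2 of knockdown over control, each ± the standard error (SE), and a gene is called changed when its p from edgeR's quasi-likelihood test, adjusted by the Benjamini-Hochberg method over 18390 tested genes, is below 0.05. ZNF706 had 3211, 3504 and 3357 counts in the controls and 2350, 2068 and 2298 in the knockdowns. Its level was 53.9 ± 1.76 CPM (SD, n = 3) in the controls and 32.4 ± 1.39 CPM (SD, n = 3) in the knockdowns, a log2 fold change of -0.73 ± 0.0505 (SE, edgeR adjusted p = 3.7e-05), and its groups did not overlap. RNA of the targeted gene remained at 60.1% of the control level in the knockdown samples.

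The cells were checked against markers of HCC and of other cell types. The epithelial keratin KRT18 stood at 271 FPKM in the controls and 261 in the knockdowns, and KRT8 at 193 and 200, whereas EPCAM and CDH1 were under 1 FPKM. Hepatocyte markers were close to absent: 2 of 8 reached a mean of 1 FPKM over the 6 samples, and ALB (albumin), the most abundant, stood at 2.63 FPKM in the controls and 1.71 in the knockdowns. The hepatocyte markers summed to 3.44, 8.02 and 9.36 FPKM in controls 1 to 3 and to 3.76, 4.01 and 2.72 in knockdowns 1 to 3, and SERPINA1 and APOB were called lower in the knockdown, with log2 fold changes of -1.47 ± 0.261 (SE, edgeR adjusted p = 0.0034) and -0.98 ± 0.252 (SE, edgeR adjusted p = 0.021). APOB was not called without control 2 (0.072), control 3 (0.087), knockdown 1 (0.069) or knockdown 3 (0.066). Control 1 and knockdown 3 stood apart from the other libraries in some markers: ALB had 189 and 138 counts there against 587 to 899 in the others, TF 37 and 24 against 213 to 375, and the fibroblast gene COL1A2 117 and 119 against 0 to 8. Without ALB the hepatocyte markers summed to 2.67 FPKM in control 1, against 4.48 and 5.79 in controls 2 and 3. In knockdown 3 that sum was 2.22 FPKM, above 1.59 and 1.56 in knockdowns 1 and 2. Leaving out control 1 and knockdown 3 was an alternative chosen after seeing the data. It called 5 of 8 hepatocyte markers lower, beside 1631 of 18642 tested genes. The 2 libraries were chosen for their low sums of these same markers, so this count cannot be read as a test of them. Results of this alternative for the members are given below. Among 4 immune markers in the table, CD68 was the most abundant and was called higher, from 10.6 to 17.1 FPKM, while the other markers, PTPRC among them, summed to at most 0.42 FPKM in any sample. Of 4 fibroblast markers, COL1A1 and PDGFRB were called higher, with COL1A1 at 7.05 and 8.4 FPKM. The endothelial marker CDH5 was called lower, from 1.25 to 0.793 FPKM, while PECAM1 stood at 0.667 and 0.77 FPKM and was not called, and VWF was listed at 0.00333 and 0.0133 FPKM. The part of these markers in the results that follow was not tested. In bulk samples, fewer cells with a given RNA and less of that RNA per cell cannot be told apart.

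Promoter windows from 250 bases before to 50 bases after the RefSeq start (GRCh38.p14) were available for 8 of the 10 genes, all except FOSL1 and IER3, and are shown for the members on which the results turn. The windows were searched on both strands for the CRE (TGACGTCA), the TPA response element (TGACTCA) and, by its name, the CArG box that SRF binds. After the sequences had been read, 2 further sites known from these promoters were added, TGACATCA of JUN and TGACGTTT of FOS. The bZIP sites share their first letters and differ at later ones, so the same bases on a given strand match only 1 of them. The JUN and FOS stretches run from base -150 to base -1, where base 1 is the RefSeq start, and the FOSL2 stretch runs from base -8 to base 22. The stretches lie at chr1:58784048-58784197 (minus strand), chr14:75278678-75278827 (plus strand), chr2:28392850-28392879 (plus strand) and, for EGR1, which was added as a gene with the CArG box and is shown from base -150 to base -1, chr5:138465329-138465478 (plus strand). JUN, FOS and EGR1 were picked for printing after their values were seen. Capitals mark the matched site.

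JUN: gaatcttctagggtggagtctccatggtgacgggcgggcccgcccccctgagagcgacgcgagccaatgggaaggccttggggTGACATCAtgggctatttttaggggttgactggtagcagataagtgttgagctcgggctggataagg

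FOS: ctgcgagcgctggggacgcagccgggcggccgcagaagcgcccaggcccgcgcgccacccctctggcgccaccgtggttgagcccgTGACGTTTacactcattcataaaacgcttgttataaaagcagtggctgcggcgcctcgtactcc

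FOSL2: gtgccattgtagTGACTCAtctcgggcaga

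EGR1: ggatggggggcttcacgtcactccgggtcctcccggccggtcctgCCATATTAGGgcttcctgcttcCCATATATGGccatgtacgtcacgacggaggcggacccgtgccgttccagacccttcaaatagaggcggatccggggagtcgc

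TGACATCA began at base -67 of JUN and TGACGTTT at base -64 of FOS. Since these sites were added because they are known from these promoters, their presence there is no finding. FOSL2 held a TPA response element starting at base 5, although the start given for FOSL2 in the deposited table lies upstream of this window. EGR1 held CArG boxes at bases -105 and -83, and JUND a CRE at base -200. JUNB, IER2 and FOSB held none of these letters in their windows. Among 35116 RefSeq promoter windows of the same length, 1.85% held the CRE, 4.95% the TPA response element, 1.29% the CArG box, 2.61% TGACATCA and 0.487% TGACGTTT. A match describes the letters in the window and does not show that a factor binds there.

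The members did not move together. JUN, FOS and FOSL2 were called higher in the knockdown, FOSL1 and JUNB were called lower, and JUND, FOSB, EGR1, IER2 and IER3 were not called. Among all 18390 tested genes 22.8% were called, 10.4% higher and 12.4% lower, so that 5 of 10 members called stood beside a background in which 4192 genes changed. With library totals alone as the scaling, 2742 genes were called higher and 1518 lower, in place of 1906 and 2286, and the members called lower were reduced to FOSL1. Without control 1 and knockdown 3, which left 2 samples a group, 1189 genes were called higher and 1631 lower. JUN (0.68, edgeR adjusted p = 0.0012), FOSL1 (-0.98, 0.001) and JUNB (-0.22, 0.028) kept their calls, FOS (0.39, 0.061) and FOSL2 (0.16, 0.069) lost theirs, and IER3 was called lower (-0.27, 0.021). The median log2 fold change of the members was -0.025, against 0.0095 over all tested genes, and it turned to 0.029 with library totals as the scaling and to 0.041 without control 2, and stood at -0.14 without control 1 and -0.12 with a correction for GC content. A second rule, an unadjusted p below 0.05 and a log2 fold change of 0.3 or more in either direction, took 3 members (JUN and FOS higher, FOSL1 lower) and 15.5% of all tested genes. The groups did not overlap in CPM for 5 members, the same 5 that were called, and for 39.4% of all tested genes.

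**Figure D1:**
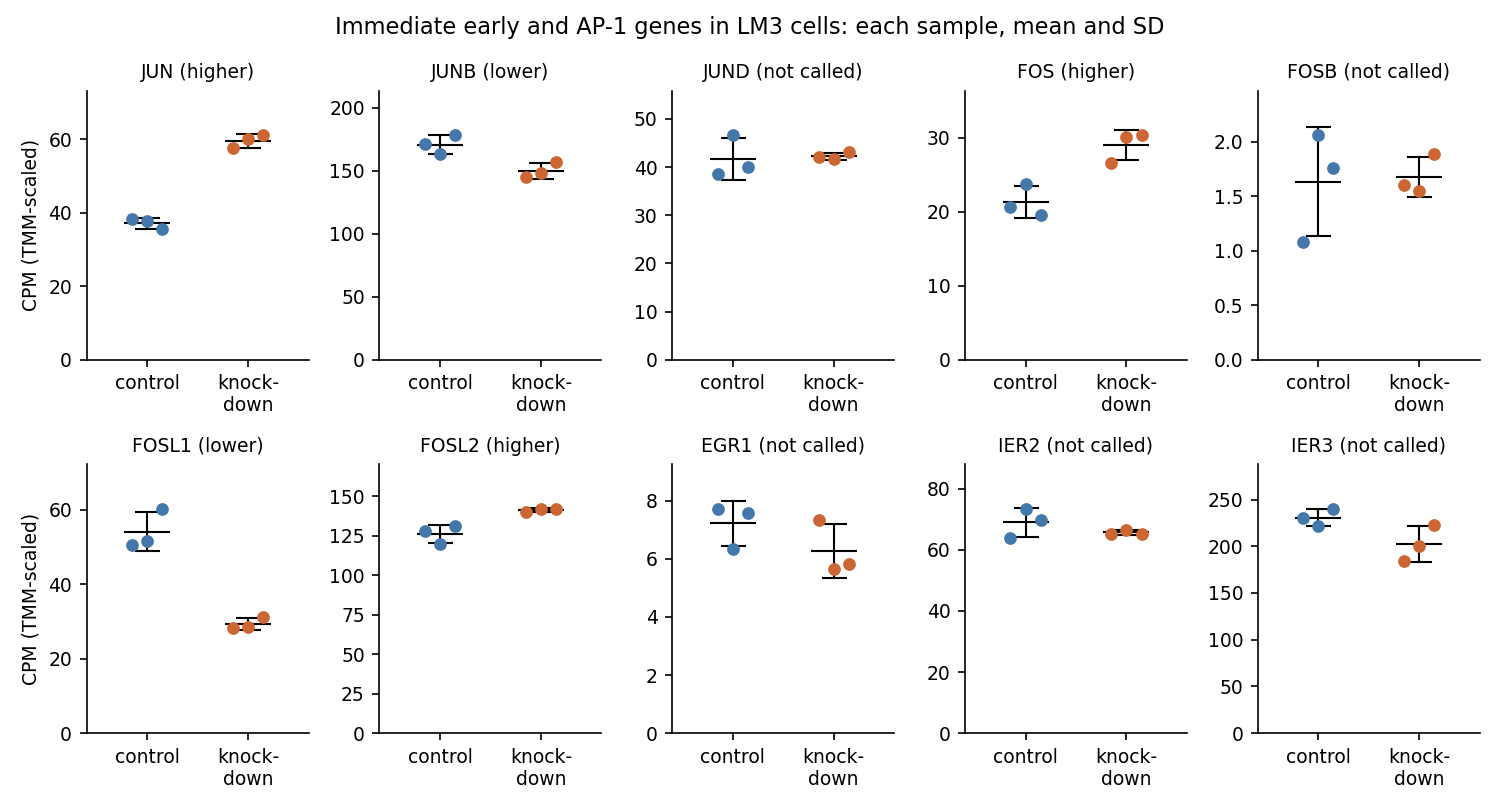
Level of each of the 10 genes in TMM-scaled CPM, on a linear axis from 0 with its own range in each panel. Points are single samples (blue, control; orange, knockdown), the long bar is the mean and the whiskers the SD of 3 samples. JUN rises from 37.2 to 59.6 CPM and FOSL1 falls from 54.1 to 29.4 CPM with no overlap, while the IER3 and EGR1 groups overlap.

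JUN, the founding JUN protein and a strong transcriptional activator, showed the clearest rise. It had 2362, 2408 and 2180 counts in controls 1 to 3 and 4039, 4028 and 4273 in knockdowns 1 to 3, or 38.2, 37.9 and 35.5 CPM against 57.6, 60.0 and 61.1 CPM. The lowest knockdown sample stood far above the highest control sample. The level rose by 60.2%, a log2 fold change of 0.68 ± 0.0465 (SE; 95% interval 0.58 to 0.78, edgeR adjusted p = 3.7e-05), and by its p JUN ranked 30 of 18390 genes. JUN (ENSG00000177606) is a single-exon gene at chr1:58780791-58784047 on the minus strand of GRCh38.

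JUNB, which often weakens JUN at shared sites and is the most abundant JUN family RNA here, differed by little. Its level was 171, 163 and 178 CPM in the controls and 145, 148 and 157 CPM in the knockdowns. All knockdown samples stood below all control samples, with 157 CPM in knockdown 3 close to 163 CPM in control 2, a gap smaller than the SD of either group (7.44 and 6.47 CPM). The log2 fold change was -0.18 ± 0.0448 (SE; 95% interval -0.28 to -0.082, edgeR adjusted p = 0.016). The call was lost when counts were scaled by library totals alone (-0.13, edgeR adjusted p = 0.055) and without control 3 (0.063), knockdown 1 (0.056) or knockdown 2 (0.078). With the GC correction the log2 fold change was -0.28 (edgeR adjusted p = 0.0046). JUNB (ENSG00000171223) is a single-exon gene at chr19:12791486-12793315 on the plus strand.

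JUND, the JUN protein usually held at a steady level in resting cells, was not called. Its level was 38.5, 46.6 and 40.0 CPM in the controls and 42.1, 41.6 and 43.1 CPM in the knockdowns. The knockdown samples lay inside the control range, which was wide because of control 2. The log2 fold change was 0.019 with a 95% interval of -0.14 to 0.17 (edgeR adjusted p = 0.88), and the sign turned with a correction for GC content (-0.1). JUND (ENSG00000130522) lies at chr19:18279694-18281622 on the minus strand. Its longest transcript has 1 exon and 69.7% GC, the highest of the 10.

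FOSL1 carried the largest change of the members, and it fell. FOSL1 encodes a FOS protein without the strong activation domain of FOS, whose RNA is known to follow sustained MAPK signalling in invasive cancer cells. It had 3120, 3287 and 3697 counts in the controls and 1985, 1917 and 2186 in the knockdowns, or 50.4, 51.7 and 60.2 CPM against 28.3, 28.6 and 31.2 CPM. Control 3 was the highest sample and the groups were well apart. The level fell by 45.7%, a log2 fold change of -0.88 ± 0.0736 (SE; 95% interval -1.05 to -0.72, edgeR adjusted p = 8.1e-05), rank 88 by p. FOSL1 (ENSG00000175592) has 4 exons at chr11:65892049-65900419 on the minus strand.

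FOS, the prototype immediate early gene, rose. Its level was 20.6, 23.7 and 19.5 CPM in the controls and 26.6, 30.1 and 30.3 CPM in the knockdowns. The groups did not overlap, with 23.7 CPM in control 2 nearest to 26.6 CPM in knockdown 1. The level rose by 36.5%, a log2 fold change of 0.45 ± 0.0892 (SE; 95% interval 0.25 to 0.65, edgeR adjusted p = 0.0059), and FOS ranked 1743 by p. The coefficient of variation of FOS was 10.2% among controls and 7.17% among knockdowns, against medians of 4.06% and 4.14% over 9474 tested genes with a mean of at least 10 CPM. FOS (ENSG00000170345) has 4 exons at chr14:75278826-75282230 on the plus strand.

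FOSL2, the other FOS protein without a strong activation domain, rose by 11.8%. It stood at 128, 120 and 131 CPM in the controls and 140, 142 and 142 CPM in the knockdowns. The knockdown samples were nearly equal to one another and all above the controls. The log2 fold change was 0.16 ± 0.0392 (SE; 95% interval 0.073 to 0.25, edgeR adjusted p = 0.016), and it was no longer called without control 2 (0.063) or knockdown 2 (0.065). FOSL2 (ENSG00000075426) has 4 exons at chr2:28392448-28417312 on the plus strand, and overlaps FLJ31356 on the opposite strand, which had at most 29 counts in a sample.

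FOSB was at the low end of detection among the members. It had 67, 131 and 108 counts in the controls and 112, 104 and 132 in the knockdowns, or a mean of 1.63 and 1.68 CPM. The knockdown samples lay within the control range, whose lowest value was control 1. The 95% interval of its log2 fold change, -0.55 to 0.63 (edgeR adjusted p = 0.94), was the widest of the 10, so at this depth a change of the size seen for FOS could not be told from none. FOSB (ENSG00000125740; chr19:45467995-45475179, plus strand) lies within ERCC1 on the opposite strand, which had 1165 to 1415 counts, and without a stated use of strand in the counting its reads cannot be told from those of ERCC1.

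EGR1, a zinc finger factor and classical target of SRF and ELK1, had 7.72, 6.34 and 7.59 CPM in the controls and 7.34, 5.64 and 5.83 CPM in the knockdowns. Its groups overlapped, with knockdown 1 among the controls. The log2 fold change was -0.2 with a 95% interval of -0.52 to 0.11 (edgeR adjusted p = 0.35). It was -0.33 without knockdown 1 (unadjusted p = 0.0414, edgeR adjusted p = 0.14), which took it past the second rule, and -0.13 without knockdown 2. EGR1 (ENSG00000120738) has 2 exons at chr5:138465479-138469303 on the plus strand.

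IER3, an early response gene that limits apoptosis and is a known target of NF-kB, was the most abundant member. It stood at 230, 222 and 240 CPM in the controls and 184, 200 and 223 CPM in the knockdowns. Knockdown 3 reached the level of control 2, and the other knockdown samples lay below all controls. The log2 fold change was -0.19 ± 0.0627 (SE; 95% interval -0.33 to -0.052), with an unadjusted p of 0.0123 and an edgeR adjusted p of 0.053, so IER3 missed the threshold by little. It was called in 8 of 17 alternatives, among them DESeq2 (adjusted p = 0.005), the GC correction (-0.25, edgeR adjusted p = 0.021) and the fit without knockdown 3 (-0.27, edgeR adjusted p = 0.0071). IER3 (ENSG00000137331) lies at chr6:30743199-30744548 on the minus strand, and its longest transcript has 1 exon. The genes overlapping IER3 had at most 15 counts in a sample.

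IER2, an early response gene and transcriptional coregulator, had 63.8, 73.4 and 69.7 CPM in the controls and 65.3, 66.6 and 65.2 CPM in the knockdowns. The knockdown samples lay within the control range. The log2 fold change was -0.07 with a 95% interval of -0.18 to 0.043 (edgeR adjusted p = 0.38). IER2 (ENSG00000160888) lies at chr19:13150411-13154911 on the plus strand, and its longest transcript has 1 exon.

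**Figure D2:**
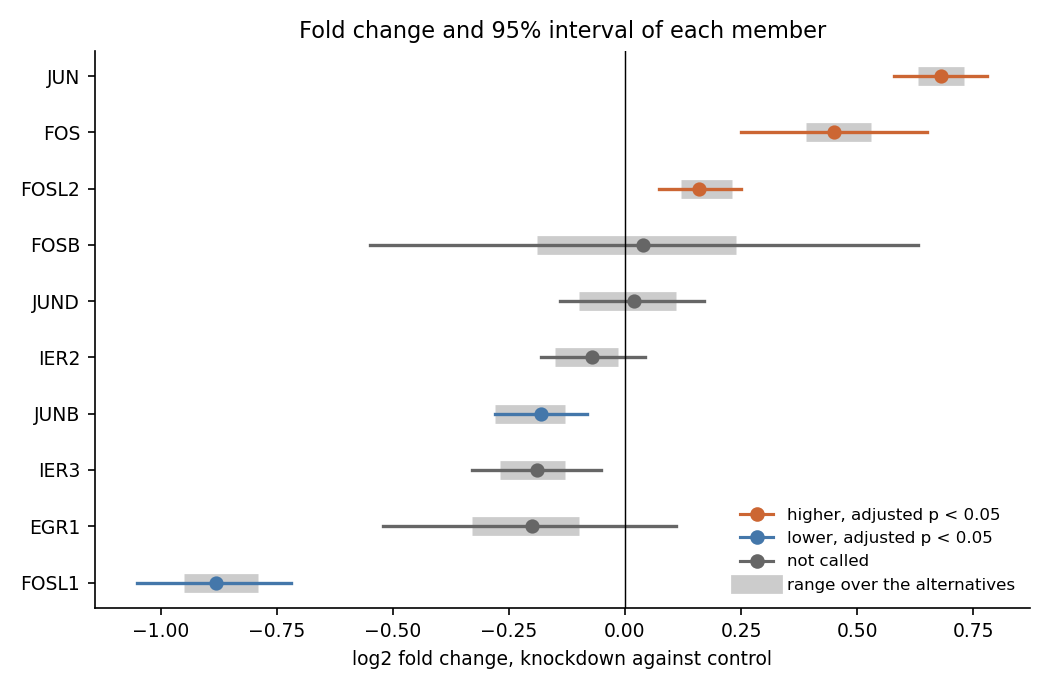
Log2 fold change of each of the 10 genes, knockdown against control, as points with the 95% interval as a line. Grey bars span the values under 17 alternative settings, including leaving out each sample in turn. JUN (0.68), FOS (0.45) and FOSL1 (-0.88) lie clear of 0, and FOSB has the widest interval.

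Compared per length, the order of the levels shifted through FOSL1 and JUN. In the controls IER3 (148 FPKM) and JUNB (80.2) were followed by FOSL1 (24.7), IER2 (19.3), JUND (18.6), FOSL2 (15.2), JUN (9.85), FOS (5.74), EGR1 (1.98) and FOSB (0.25). IER2 and JUND were the only neighbours whose samples overlapped. In the knockdowns IER3 (134 FPKM) and JUNB (73.1) were followed by JUND (19.5), IER2 (19.0), FOSL2 (17.6), JUN (16.3), FOSL1 (13.9), FOS (8.11), EGR1 (1.78) and FOSB (0.26), and again only JUND and IER2 overlapped. FOSL1 went from rank 3 to rank 7 and JUN moved above it. EGR1 and FOSB were the lowest in both groups.

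The make-up of the FOS family changed with these levels. FOSL1 held 52.2%, 52.7% and 56.3% of the summed FOS family FPKM in controls 1 to 3 and 34.8%, 33.9% and 35.7% in knockdowns 1 to 3. FOSL2 held 33.2% ± 1.46 (SD, n = 3) in the controls and 44.2% ± 1.13 (SD, n = 3) in the knockdowns, and FOS 12.5% ± 1.76 and 20.3% ± 0.91. FOSL1 was thus the leading FOS family RNA in every control sample and FOSL2 in every knockdown sample. The FPKM ratio of FOSL1 to FOSL2 was 1.62 ± 0.123 in the controls and 0.788 ± 0.038 in the knockdowns (SD, n = 3), and that of FOSL1 to FOS was 4.36 ± 0.794 and 1.71 ± 0.0995. The family summed to 45.9 ± 2.16 FPKM in the controls and 39.8 ± 1.35 in the knockdowns.

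In the JUN family the sum was level in FPKM, 109 ± 1.19 FPKM in the controls and 109 ± 3.64 in the knockdowns (SD, n = 3). JUN held 9.06% ± 0.505 of it in the controls and 15% ± 0.275 in the knockdowns, while JUNB held 73.8% ± 2.2 and 67.1% ± 0.516. JUNB remained the most abundant JUN family RNA in all 6 samples. The ratio of JUN to JUNB was 0.126, 0.131 and 0.112 in controls 1 to 3 and 0.223, 0.229 and 0.218 in knockdowns 1 to 3, without overlap. These shares and ratios describe RNA, not the AP-1 protein pairs, and were not tested. The sums of both families follow library totals, since FPKM was not scaled by TMM. TMM factors were 0.974 to 0.9879 in the controls and 1.014 to 1.024 in the knockdowns. Scaling by them would lower the knockdown sums relative to the controls, but leave the shares and ratios unchanged.

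**Figure D3:**
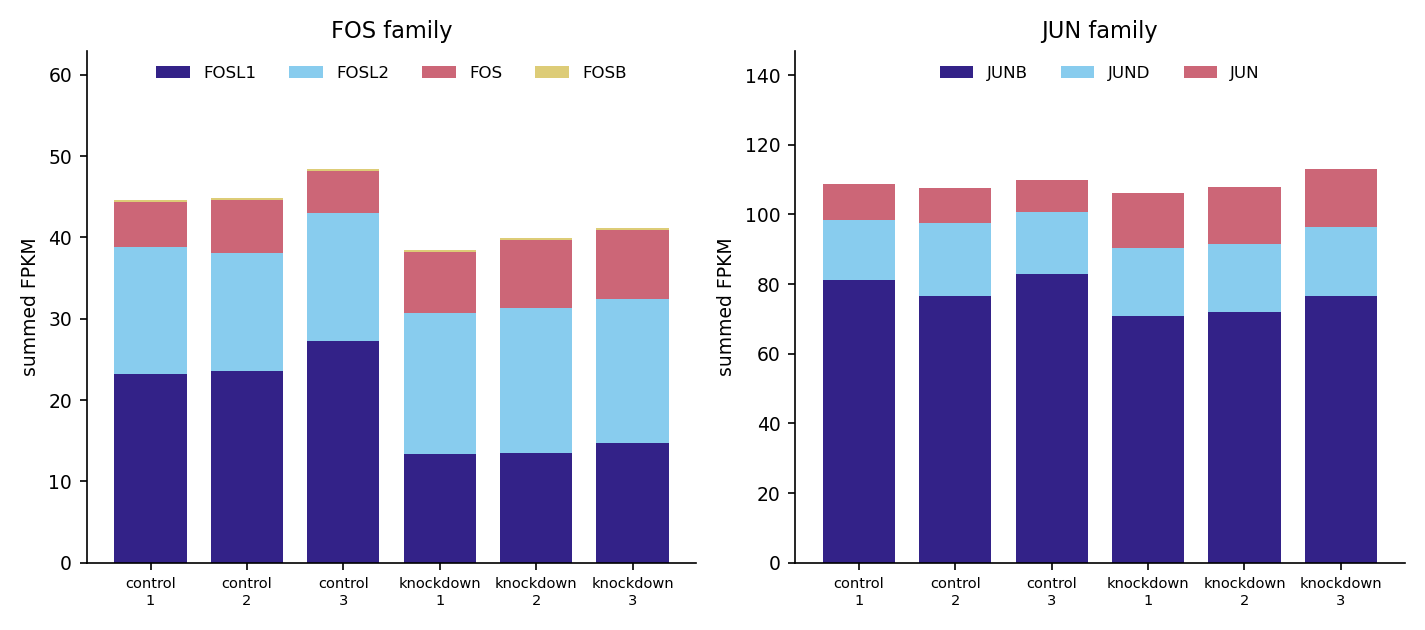
Summed FPKM, not scaled by TMM, of the FOS family (left) and the JUN family (right) in each of the 6 samples, as stacked bars from 0. FOSL1 is the largest segment of the FOS family in the controls and FOSL2 in the knockdowns, and the JUN segment widens in the knockdowns while the total of the JUN family stays near 109 FPKM.

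JUN had the smallest adjusted p of the members, and the genes whose levels followed JUN most closely were sought among 9474 genes with a mean of at least 10 CPM. By Pearson's r of log2 CPM over 6 samples, which share the group difference, they were C5AR2 (0.9977), DDX54 (0.9972), COL5A1 (0.9971), KDM1B (0.9963) and ITGA5 (0.9962). C5AR2, a complement receptor, had 11.7, 11.8 and 11 CPM in the controls and 19.9, 20.3 and 20.0 CPM in the knockdowns. The log2 fold changes of these genes ranged from 0.14 for DDX54, a helicase, to 0.80 for C5AR2. The likeness is a description and no p was computed for it.

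Other genes of the pathway were taken from lists that had been chosen with earlier results of these data known, and 10 genes stand on more than 1 list. Other immediate early genes were called in both directions: of 37 listed, 33 were tested, 6 were higher and 14 were lower, and their median log2 fold change was -0.23, beside 10.4% higher and 12.4% lower among all tested genes. The median was -0.14 without control 3 and -0.15 on the log2(FPKM + 1) scale, and without control 1 and knockdown 3 the counts were 3 higher and 12 lower. EGR2, EGR3, EGR4 and ARC had too few reads to be tested. RHOB, a small GTPase, rose from 68.7 ± 1.26 to 108 ± 3.83 CPM (SD, n = 3), a log2 fold change of 0.65 ± 0.0385 (SE, edgeR adjusted p = 1.8e-05). IER5L rose by 0.41 and the kinase SIK1 by 0.38 on the log2 scale. IER5L was not called without control 2 (edgeR adjusted p = 0.051) or knockdown 2 (0.058), or with the GC correction (0.051). It was also not called without control 1 and knockdown 3 together (edgeR adjusted p = 0.098). MAFF, a small MAF protein, fell from 25.2 ± 1.16 to 15 ± 0.692 CPM (SD, n = 3), a log2 fold change of -0.75 ± 0.0753 (SE, edgeR adjusted p = 0.00019). PPP1R15A, also called GADD34, which restores translation after stress, fell by 0.69 and the kinase PLK2 by 0.65 on the log2 scale.

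Among 15 other bZIP genes that can pair with AP-1 proteins, 12 were tested. Of these, 0 were called higher and 5 lower, beside 10.4% higher and 12.4% lower among all tested genes. The median log2 fold change of the list was -0.12. At an unadjusted p below 0.05, 0 were higher and 5 lower by edgeR, and DESeq2 with adjustment also called 0 higher. ATF2, which pairs with JUN at the JUN promoter, fell from 73.2 ± 1.52 to 58.6 ± 2.03 CPM (SD, n = 3), a log2 fold change of -0.32 ± 0.0398 (SE, edgeR adjusted p = 0.00056). With the GC correction the log2 fold change of ATF2 was -0.2 (edgeR adjusted p = 0.017). MAFF, described above, also stands on this list. The count of lower genes was 3 with library totals as the scaling, and 3 without control 2, control 3 or knockdown 3, or without both control 1 and knockdown 3. The median was -0.066 with library totals, -0.071 with the GC correction and -0.053 with the length correction.

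Upstream of the members, 27 kinases and transcription factors of the MAPK pathways were tested, with a median of -0.15. In this list 3 were called higher and 12 lower, beside 10.4% higher and 12.4% lower among all tested genes. SRF, which binds the CArG box, fell from 64.1 ± 1.41 to 46.9 ± 1.21 CPM (SD, n = 3), a log2 fold change of -0.45 ± 0.0394 (SE, edgeR adjusted p = 9.9e-05). RPS6KA3, the ERK-activated kinase RSK2, and MAPK8, the JUN kinase JNK1, fell by 0.37 and 0.35 on the log2 scale. RPS6KA1, the related kinase RSK1, rose by 0.28, MAPK3, which encodes ERK1, by 0.22 and MAP2K2, which encodes MEK2, by 0.17, but MAPK3 was not called without control 2 (edgeR adjusted p = 0.053) or knockdown 2 (0.058) and MAP2K2 not without knockdown 2 (0.059), and neither was called with the GC correction (0.081 and 0.13). MAPK3 was also not called without control 1 and knockdown 3 together (edgeR adjusted p = 0.083). These values are RNA levels and do not measure kinase activity. With library totals as the scaling 5 were higher and 8 lower. The count of lower genes was 7 without control 3, 7 with the GC or length correction and 7 on the FPKM scale, and the count of higher genes was 1 without knockdown 2 and with the GC correction.

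The MAPK feedback list holds genes that ERK signalling induces and that in part limit it. Of its 14 genes, 0 were called higher and 8 lower, beside 10.4% higher and 12.4% lower among all tested genes. The median log2 fold change of the list was -0.43. At an unadjusted p below 0.05, 0 were higher and 9 lower, and DESeq2 with adjustment also called 0 higher and 8 lower. The count of lower genes was 7 with library totals as the scaling, and 7 or 8 with 1 sample left out. It was 6 of 8 tested genes on the FPKM scale, and 6 without control 1 and knockdown 3 together. The median was -0.37 with library totals and -0.29 on the log2(FPKM + 1) scale. SPRY4, an inhibitor of receptor tyrosine kinase signalling, had 6.74 ± 1.42 CPM in the controls and 2.13 ± 0.655 CPM in the knockdowns (SD, n = 3), a log2 fold change of -1.66 ± 0.245 (SE, edgeR adjusted p = 0.0013). The ETS factors ETV5 and ETV4 fell from 78.1 to 41.7 CPM (-0.9 ± 0.0564, SE) and from 28.6 to 16.2 CPM (-0.82 ± 0.0771, SE). The other called genes were DUSP1, DUSP4, DUSP5, SPRED1 and SPRED2. FOSL1, described above, fell alongside them, while FOS and JUN rose.

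Of 22 genes known as AP-1 targets, 20 were tested, 4 were called higher and 2 lower, with a median of 0.032, beside 10.4% higher and 12.4% lower among all tested genes. The median lay near 0 and moved with the setting: it was 0.0034 with the GC correction, 0.11 on the FPKM scale, 0.077 without control 1 and 0.0058 without knockdown 3. MMP13, a collagenase, rose from 4.07 ± 0.514 to 6.22 ± 0.176 CPM (SD, n = 3), a log2 fold change of 0.61 ± 0.132 (SE, edgeR adjusted p = 0.009), which was not called without control 1 and knockdown 3 together (0.057). IL6, a cytokine, fell from 16.9 to 9.83 CPM (-0.78 ± 0.093, SE, edgeR adjusted p = 0.00045), and CD44, an adhesion receptor, from 303 to 268 CPM. MMP9 was listed at 0 counts in all samples and MMP10 was not tested. The count of lower targets was 4 with the GC correction and by DESeq2, and 7 targets were called higher on the FPKM scale.

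**Figure D4:**
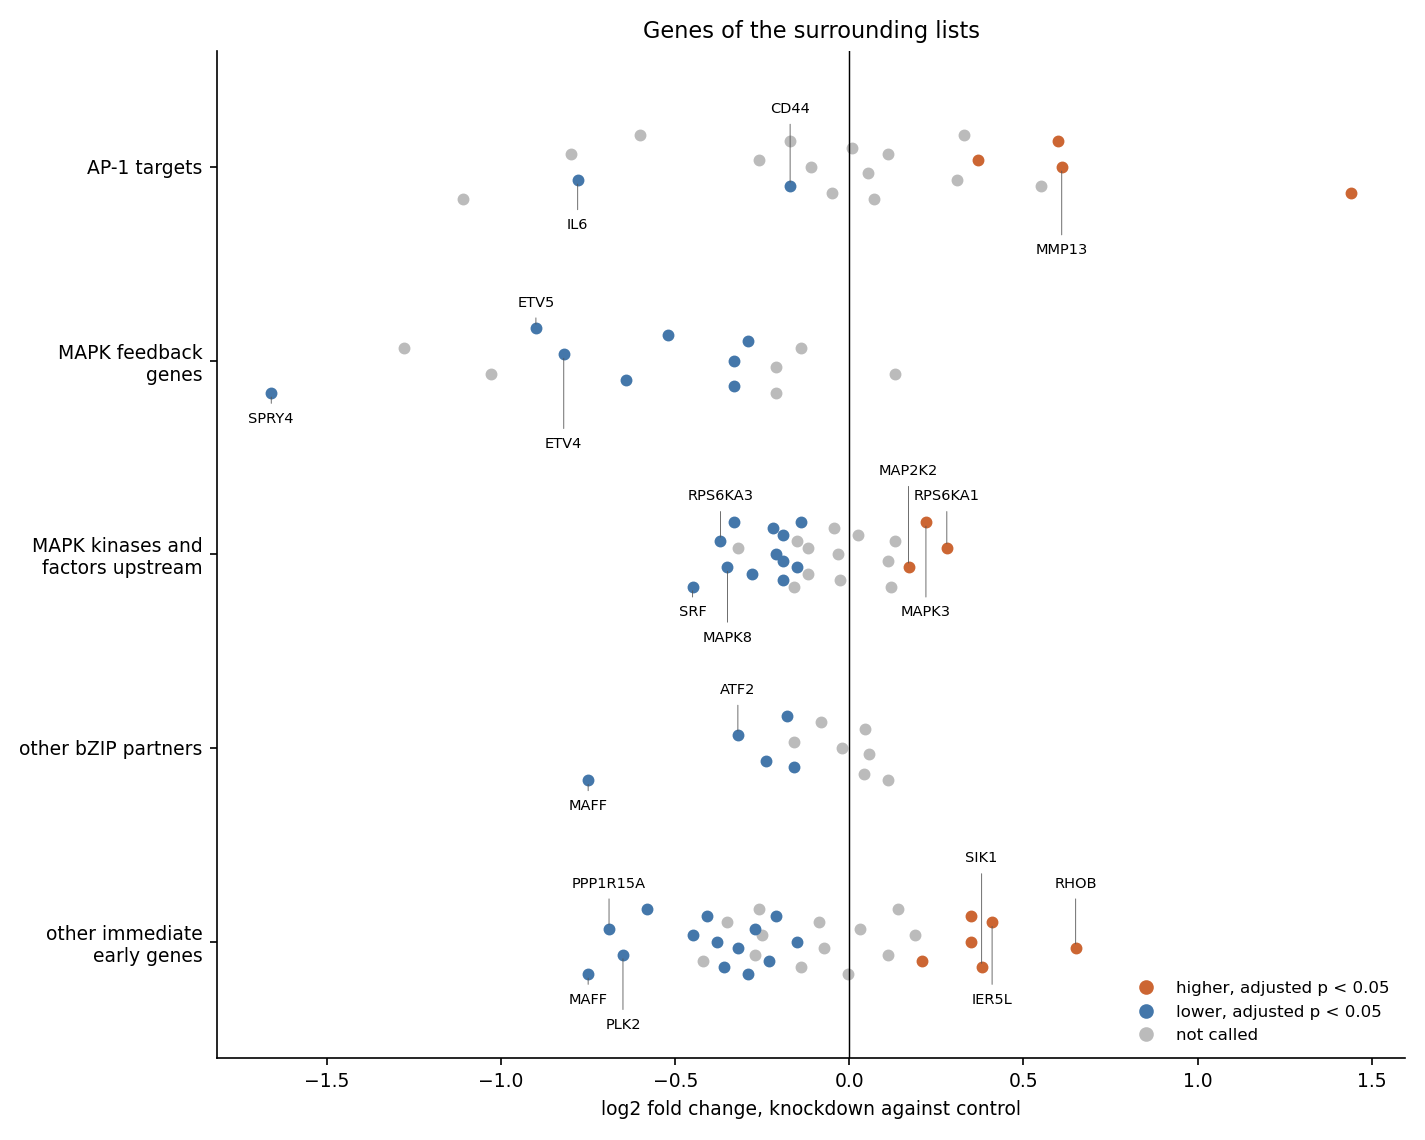
Log2 fold change, knockdown against control, of the tested genes of 5 lists around the members, with genes called higher in orange, lower in blue and not called in grey. Points are spread vertically within a row only to separate them, and only some genes are labelled. The MAPK feedback row holds 8 genes called lower and 0 called higher, and the AP-1 target row has genes called on both sides of 0. Among all tested genes, 10.4% were called higher and 12.4% lower.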

How the data were processed

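RNA-seq was performed on total RNA from 6 samples of LM3 cells (3 control, 3 ZNF706 knockdown) on an Illumina NovaSeq. The submitters' processing notes name cutadapt 1.9, FastQC and GRCh38, and the reads were mapped with HISAT2 by the authors. The authors deposited 1 table with raw counts per gene, whole numbers without normalization, for each sample. The same table holds FPKM values, which the authors divided by gene length and library size. The counting program, its use of strand and the annotation release are not given in the sources used here.

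The members and lists were chosen with earlier results of these data known. Groups and replicate numbers followed the sample titles. Low counts were removed by filterByExpr, libraries were scaled with TMM factors, and genes were tested by the quasi-likelihood test of edgeR 4.0.16 (R 4.3.3) with a term for the group, and p-values were adjusted by the Benjamini-Hochberg method over 18390 genes. The SE was taken as the size of the log2 fold change over the root of the F statistic. The script was tested on simulated data. Named genes were the 10 members, ZNF706, up to 3 largest rises and 3 largest falls per list at an adjusted p below 0.05, and the 5 genes most like the member with the smallest adjusted p. Some genes that this rule takes are not reported here, although the counts include them. Alternatives were DESeq2 1.42.0, limma 3.58.1 on log2(FPKM + 0.1) and log2(FPKM + 1) for genes with a mean of at least 1 FPKM, other scalings and filters, GC and length corrections, a replicate block and each sample left out. Leaving out control 1 and knockdown 3 together was added after seeing the data. Total counts were between 62684076 and 69057423 per sample, and samples of a group differed by more than sampling noise.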

Additional observations from a re-analysis of the deposited data

How the results depend on the processing

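Calls, counts, list medians and member fold changes were recomputed under 17 alternatives, 6 of which left out 1 sample each, but the family shares, the order of levels and the likeness to JUN were not. JUN (log2 fold change 0.63 to 0.73), FOSL1 (-0.95 to -0.79) and FOS (0.39 to 0.53) were called in 17 of 17, FOSL2 in 15 and JUNB in 13. IER3 was called in 8, among them DESeq2 (-0.19, adjusted p = 0.005), with a range of adjusted p over the alternatives of 0.005 to 0.17, and IER2 in 1, the GC correction with the replicate block (-0.14, edgeR adjusted p = 0.04). EGR1 was called in 0 of 17, with an unadjusted p of 0.179 in edgeR, 0.244 in DESeq2 and 0.0414 without knockdown 1 (-0.33). The number of members called lower was 1 with library totals as the scaling and 4 with the GC correction and the replicate block, and 1 to 3 with a sample left out. The number of all genes called higher was 1253 without a filter and 1148 to 1485 with a sample left out, and that of genes called lower was 1518 with library totals and 1500 to 1939 with a sample left out. In an alternative chosen after seeing the data, control 1 and knockdown 3, which had few reads of ALB and TF, were left out together. Then 1 member was called higher (JUN) and 3 lower, and FOS (0.39, edgeR adjusted p = 0.061) and FOSL2 (0.16, 0.069) lost their calls. Of all genes, 1189 were called higher, and FOSB (-0.28) and JUND (-0.048) reversed. Under the 17 alternatives, signs reversed among single members only for FOSB (GC correction -0.016, 1 sample left out -0.19 to 0.24) and JUND (GC correction -0.1, with the block -0.1, length correction -0.021, 1 sample left out -0.039 to 0.11), neither of which was called. The causes were not tested. FOSB had under 1 FPKM and was not in either limma fit.

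Same-numbered samples did not deviate together across all genes (r of 0.0344, -0.0363 and -0.0156), and nothing in the labels pairs them. Such values over all genes cannot exclude a shared batch or pairing that acts on some genes. With the replicate block 1967 genes were called higher and 2394 lower, and the members called were 3 higher and 3 lower, IER3 being the addition (-0.2, edgeR adjusted p = 0.015). The block changed no other member's call. FOSB and EGR1 had the lowest depth of the members, at most 132 and 515 counts per sample.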

Other observations

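A list of cytoskeletal genes regulated by SRF and its MRTF cofactors was also examined. Of 16 listed, 15 were tested, 4 were higher and 3 lower, beside 10.4% higher and 12.4% lower among all tested genes. The median log2 fold change of the list was -0.077. The lower calls depended on single samples: 0 were lower without knockdown 2, 1 without control 1 and 1 without knockdown 3 (median 0.0052), and with library totals as the scaling 6 were higher and 1 lower. On the FPKM scale 6 were higher and 2 lower, with a median of 0.043. FLNA, the actin cross-linker filamin A, rose from 1230 to 1480 CPM (0.27 ± 0.0329, SE, edgeR adjusted p = 0.00052), FHL2 by 0.22 and MYL9, a myosin light chain, by 0.20 on the log2 scale. TAGLN, the actin-binding protein transgelin, fell from 17.3 to 11.8 CPM (-0.54 ± 0.124, SE, edgeR adjusted p = 0.011), the matrix protein gene CCN1 by 0.27 and ACTG1, gamma actin, by 0.11. FHL2 lost its call without control 2 (0.061) or knockdown 3 (0.054), TAGLN without knockdown 2 (0.054), CCN1 without control 1 (0.054), control 2 (0.077), knockdown 2 (0.093) or knockdown 3 (0.052), and ACTG1 without control 1 (0.058), control 3 (0.052), knockdown 2 (0.09) or knockdown 3 (0.057), each an edgeR adjusted p. MYL9 was not called with the GC correction (0.051), and CCN1 (0.063) and ACTG1 (0.19) not with library totals. Without control 1 and knockdown 3 together, 3 were higher and 1 lower. In that fit MYL9 (edgeR adjusted p = 0.07), CCN1 (0.091) and ACTG1 (0.11) were not called. SRF itself fell, as given above.

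Of 8 genes for proteins that bind AU-rich elements, 1 was called higher and 4 lower, beside 10.4% higher and 12.4% lower among all tested genes. The median log2 fold change of the 8 genes was -0.14. With the GC correction 2 were lower, TIA1 (edgeR adjusted p = 0.076) and TIAL1 (0.23) not being called, and with the GC correction and the replicate block 1 was lower (median -0.088 in both). ZFP36L1, which promotes the decay of such RNAs, rose from 49.8 ± 1.27 to 63.5 ± 0.817 CPM (SD, n = 3; 0.35 ± 0.038, SE, edgeR adjusted p = 0.00029). TIA1 (-0.22), KHSRP (-0.19) and TIAL1 (-0.18) fell. The stability of the member RNAs was not measured.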
